A study of Mus musculus with 12 samples.

Results

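The genes described are the mRNAs of the translation initiation and elongation factors in fully grown germinal vesicle (GV) oocytes of the mouse. They were chosen by name, as every symbol of the deposited table that begins with Eif1 to Eif6 or with Eef1 or Eef2, leaving out the eIF4E-binding transporter Eif4enif1, the oocyte cap-binding paralog Eif4e1b and the Argonaute genes once called Eif2c. This gave 62 of 24259 genes, which were sorted by the role of their products into 10 groups. The study separated oocyte lysates on sucrose gradients and sequenced RNA from a light pool, fractions 1 to 10, called RNP, and from a heavy pool, fractions 11 to 28, called polysome. Wild-type (WT) oocytes were compared with Lsm14b-KO oocytes, and each of the 4 groups held 3 libraries. LSM14B is an RNA-binding protein of cytoplasmic RNP granules, and the comparison asks how its loss alters the mRNAs held on and off polysomes.

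The KO mice were homozygous for Lsm14b tm1a(KOMP)Mbp, a knockout-first allele with a reporter insertion that is present in every cell of the animal, on a C57BL/6J background. Oocytes of both genotypes came from 3-week-old mice, 46 h after 5 IU of pregnant mare serum gonadotropin (PMSG), and were held in cycloheximide, which stalls ribosomes on mRNA. Each lysate pooled many oocytes, and the sources used here do not say whether the 3 libraries of a group came from separate lysates, so the p-values measure the spread between these libraries only. Total RNA was not analysed here.

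Initiation in eukaryotes begins when eIF2, bound to GTP and the initiator tRNA, joins the small ribosomal subunit together with eIF1, eIF1A, eIF3 and eIF5. The cap-binding complex eIF4F, made of the cap-binding protein eIF4E, the scaffold eIF4G and the helicase eIF4A, brings the mRNA, and after start codon recognition eIF5B helps the large subunit to join. eEF1A then delivers aminoacyl-tRNA, eEF2 moves the ribosome along, and eIF2B recharges eIF2. Fully grown oocytes are transcriptionally quiet and live from stored mRNA, much of which is kept out of polysomes by short poly(A) tails and by repressors of eIF4E until meiosis resumes.

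The targeted gene followed its labels. Lsm14b stood at 34.6, 29.3 and 27.4 FPKM (fragment counts divided by transcript length and by library size) in the WT RNP libraries and at 0.893, 0.0627 and 0 FPKM in the KO RNP libraries. In the polysome pool it stood at 11.3, 15.3 and 13.2 FPKM in WT and at 0.260, 0 and 0.0876 FPKM in KO, and the genotypes did not overlap in either pool (log2 change -4.63 in RNP and -3.67 in polysome, adjusted p 5.66e-05 and 0.00271 by limma). All 11 oocyte markers examined, such as Gdf9 and Zp3, were above 1 FPKM in all 12 libraries. The 12 granulosa and cumulus cell markers summed to 31.3 to 35.3 FPKM in WT RNP, 43.2 to 65.5 in KO RNP, 27.2 to 75.5 in WT polysome and 81.4 to 103 in KO polysome, so they were higher in KO in both pools, although Star was at 0 and Fst and Amhr2 stayed under 1 FPKM throughout. The part of these higher sums in the differences below was not tested. Markers of theca and stroma summed to at most 2.58 FPKM in any library, those of endothelium, nearly all Pecam1, to 13.2 to 41.0 FPKM, and of 7 blood and immune markers 6 were at 0 throughout. The files hold no counts, and the steps between low FPKM values put the depth roughly between 4.73 M fragments (M, 1e6) in KO polysome library 3 and 7.79 M in WT polysome library 3, with KO polysome library 2 at 5.07 M. In the second KO polysome library the microRNA gene Mir300 alone reached 170809 FPKM and was at 0 elsewhere, while the library's median FPKM over expressed genes, 7.80, lay within the range of the other libraries, 7.54 to 8.09.

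Most factor mRNAs were present, and their levels spread widely (the plot of levels by role). The mean over the 12 libraries was at least 100 FPKM for 11 of the 62 factors, 10 to 100 FPKM for 19, 1 to 10 FPKM for 22 and under 1 FPKM for 10. The median over all 62 factors, of which 56 reached 1 FPKM in at least 3 libraries, was 9.71 FPKM. Over the 10949 genes that reached this level it was 8.31 FPKM, so the medians are of unlike sets. Of these genes, 7.96% averaged at least 100 FPKM. Summed over all 62, the factors came to 3002 to 3211 FPKM in WT RNP, 3591 to 3649 in KO RNP, 3764 to 3782 in WT polysome and 4284 to 4508 in KO polysome, and these ranges do not overlap. The separation depends on the scale, since the total FPKM differed between libraries. As a share of that total, the factors made up 0.673% to 0.730% in WT RNP, 0.780% to 0.788% in KO RNP, 0.763% to 0.813% in WT polysome and 0.646% to 0.869% in KO polysome, where the lowest value is that of the library with high Mir300 and becomes 0.855% without that gene. On this scale the genotypes overlap in the polysome pool and not in the RNP pool. A few abundant members carry most of each sum, and the genotypes differed in several of them. FPKM divides by transcript length, so different genes share a scale. It does not correct for the amplification of the RNA or for reads shared between gene copies. Comparisons of level between genes are therefore rough.

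**Figure D1:**
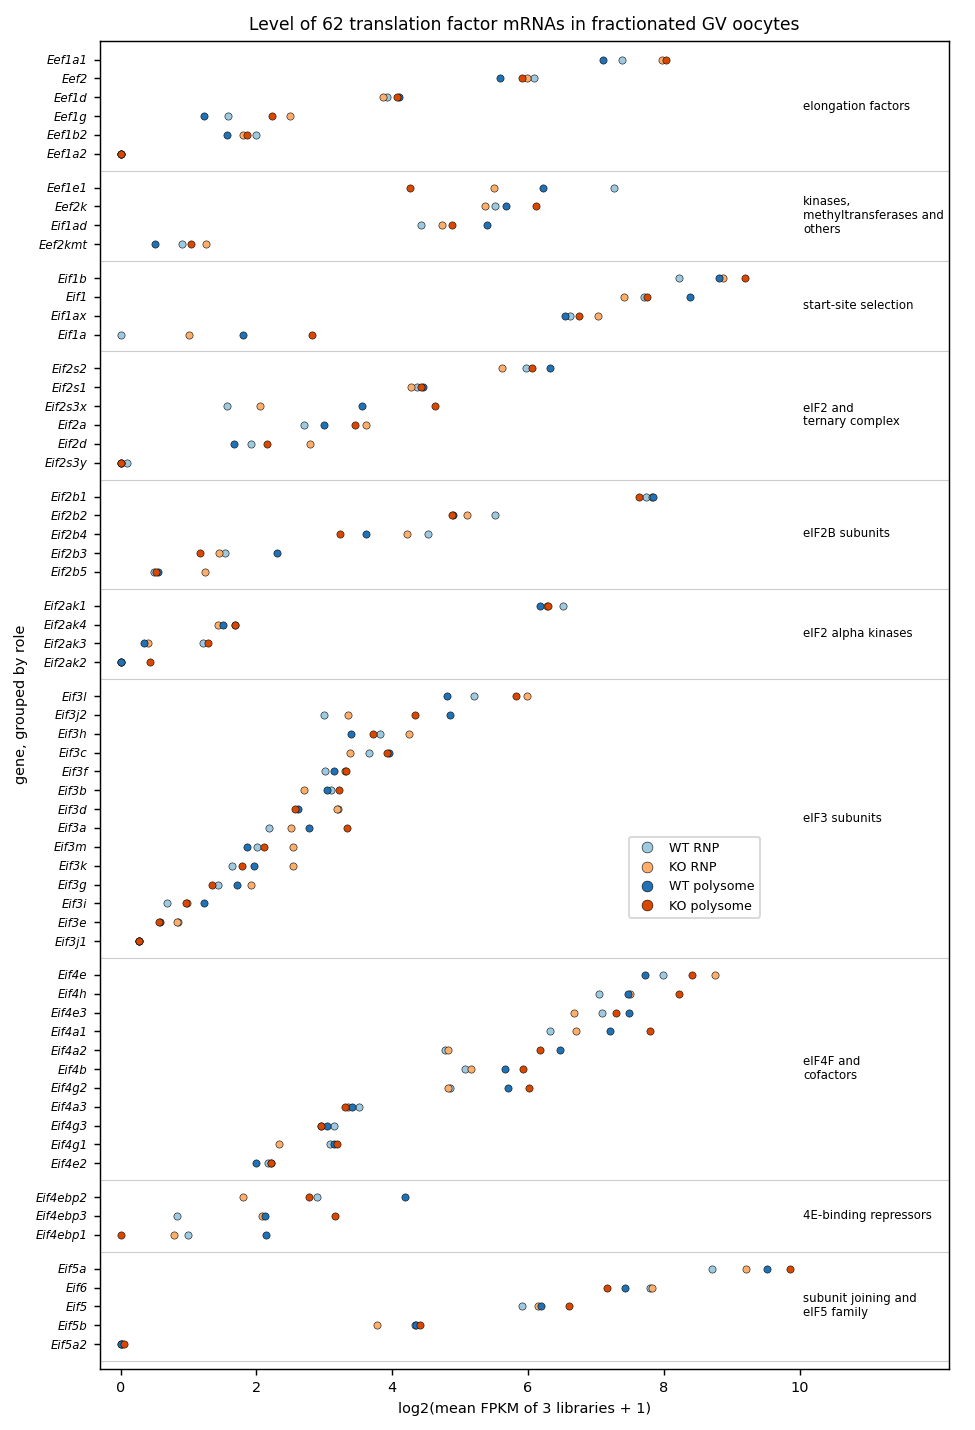
Mean level of each of the 62 factors in each of the 4 groups, as log2(mean FPKM of 3 libraries + 1), 1 row per gene and grouped by role. Eif5a, Eif1b and Eif4e lie at the right end, while Eef1a2, Eif2s3y, Eif5a2 and Eif2ak2 lie at or near 0.

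Among the elongation factors, Eef1a1, the carrier of aminoacyl-tRNA, averaged 203 FPKM and Eef2, the translocase, 58.9 FPKM. The muscle and brain paralog Eef1a2 was listed at 0 in all 12 libraries. The exchange factor subunits that reload eEF1A were lower, with Eef1d at 14.9, Eef1g at 2.90 and Eef1b2 at 2.51 FPKM. Within 1 complex the mRNAs differed in FPKM by more than the spread between libraries. The highest Eef1g or Eef1b2 value of any library, 5.28 FPKM, was under the lowest Eef1d value, 7.98 FPKM.

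The initiation factors showed the same spread within complexes. Of the 14 eIF3 subunits, which together scaffold the small subunit and the mRNA, Eif3l was highest at 45.1 FPKM and Eif3e was at 0.639 FPKM, with a median of 6.20 FPKM over the 14. Of the 5 eIF2B subunits, Eif2b1 averaged 216 FPKM, Eif2b2 33.7, and the catalytic Eif2b5 0.666 FPKM. Of the 3 eIF2 subunits, the mRNA of the beta subunit, Eif2s2, averaged 63.5 FPKM, that of the alpha subunit, Eif2s1, 19.8 FPKM, and that of the gamma subunit, Eif2s3x, 9.92 FPKM. The Y-linked gamma paralog Eif2s3y had a value above 0 in 1 library, at 0.197 FPKM, and its reads may not be separable from those of the nearly identical Eif2s3x.

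Paralogs were unequal. Eif5a, whose hypusine-carrying product helps ribosomes through difficult peptide bonds, was the highest member at 667 FPKM, while Eif5a2 did not pass 0.0943 FPKM in any library. Both genes for the start codon fidelity factor were abundant, Eif1b at 449.7 FPKM and Eif1 at 231 FPKM, and the Eif1b mean was the higher in all 4 groups. Of the eIF1A genes, the X-linked Eif1ax averaged 106 FPKM and Eif1a 2.38 FPKM. The cap-binding protein genes ranked as Eif4e at 308, Eif4e3 at 143 and Eif4e2 at 3.45 FPKM, and the helicase genes as Eif4a1 at 137, Eif4a2 at 53.1 and Eif4a3, whose product works in the exon junction complex, at 9.51 FPKM. Eif4g2, which encodes a scaffold without the eIF4E-binding site, averaged 42.4 FPKM, while Eif4g1 and Eif4g3 averaged 6.86 and 7.11 FPKM and did not separate from each other, with library ranges of 3.84 to 9.31 and 5.86 to 9.01 FPKM.

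The regulators of initiation were mostly low. Of the 4 kinases that phosphorylate eIF2 alpha under stress, Eif2ak1, the heme-regulated kinase, averaged 78.7 FPKM. Eif2ak4, the sensor of amino acid shortage, averaged 1.99 FPKM, Eif2ak3, the kinase of the endoplasmic reticulum, 0.838 FPKM, and Eif2ak2, the kinase activated by double-stranded RNA, was listed at 0 in 11 of the 12 libraries. The 3 repressors that hold eIF4E away from eIF4G were low and uneven, with Eif4ebp2 between 0 and 33.9 FPKM, Eif4ebp3 between 0 and 12 FPKM and Eif4ebp1 between 0 and 10.2 FPKM in single libraries. Eef2k, the kinase that slows elongation by phosphorylating eEF2, averaged 50.9 FPKM. The eIF3j genes could not be read as a pair. The deposited table gives Eif3j1 and Eif3j2 the same coordinates, whereas GENCODE M21 places Eif3j2 on another chromosome, and Eif3j1 lay at 0.201 to 0.215 FPKM in every library while Eif3j2 ranged over 4.67 to 35.2 FPKM.

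Many mRNAs of the translation machinery start with an unbroken run of C and T, by which nutrient signalling sets their translation. The bases around annotated starts were therefore read from the RefSeq promoter table (GRCm38.p6) for the 49 factors it holds. A window of 30 bases was taken from 5 before to 25 after an annotated start on the transcribed strand. Where a gene had several annotated starts, the window with the longest run was kept, for factors and other genes alike. It held a run of at least 8 bases of C or T only in 11 of these 49 factors (22.4%). The share was 11.9% of all 27025 genes in the table and 12.1% of the 8370 of them that were expressed here. Genes with more starts had more chances of a run, and numbers of starts were not compared. Windows of 5 factors are shown, chosen for long runs or because their levels are followed below, with the longest run of C and T in capitals.
Eef1a1, chr9:78481700-78481729, minus strand: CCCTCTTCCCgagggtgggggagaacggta
Eef2, chr10:81176626-81176655, plus strand: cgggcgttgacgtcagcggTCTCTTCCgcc
Eif3l, chr15:79075218-79075247, plus strand: cttcttccgCTCTCTCCCacgggcttctgg
Eif3f, chr7:108934410-108934439, plus strand: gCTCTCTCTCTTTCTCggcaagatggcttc
Eif2s3x, chrX:94212627-94212656, minus strand: TTTTCCTTTTCTCTCCgagcaagatggctg
A run of at least 8 began within the first bases of the window in Eef1a1, Eif2s3x and Eif3f. In Eif3l the window opens with a run of 8, parted by 1 base from the longer run in capitals, and in Eef2 the run lay further in. A run of these letters describes the annotated window only, since the start used in oocytes was not measured. None of the printed runs, that of Eef1a1 included, was shown to open the mRNA.

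Translation of stored oocyte mRNA is switched on through cytoplasmic polyadenylation elements in the 3′ UTR. In 1 GENCODE M21 transcript per gene (GRCm38), the 3′ UTR was searched on the transcript strand for TTTTAT and TTTTAAT. The search covered its last 150 bases, or all of it where shorter, so genes with a short 3′ UTR had fewer bases searched. At least 1 of the 2 motifs stood there in 12 of the 56 expressed factors (21.4%), beside 24.6% of the 10094 expressed coding genes. Windows of 30 bases around the match are shown, motif in capitals, for 4 factors whose levels differed between genotypes or pools.
Eef1a1, chr9:78478503-78478532, minus strand: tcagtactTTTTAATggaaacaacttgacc
Eif1b, chr9:120495216-120495245, plus strand: gttgttagTTTTATtttcacttgactgtta
Eif4e3, chr6:99625211-99625240, minus strand: tgagaaaaTTTTATttttgaactttattta
Eif4g1, chr16:20692732-20692761, plus strand: gggtccttTTTTATtttctgaaatcactct
The match lay 76 bases before the transcript end in Eef1a1, 107 in Eif1b, 98 in Eif4e3 and 142 in Eif4g1. Eif4e, Eif3l, Eif4a1, Eif4h, Eif5a, Eif1, Eif2a and Eef1e1, which also differed between genotypes, had no match in this window.

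In FPKM, Eef1a1, Eif3l and Eif4e mRNA stood higher in KO than in WT in both pools, and Eef1e1 mRNA stood lower in both. These are relative levels within each library and give no amount of mRNA per oocyte. In the polysome pool, 52 factors reached 1 FPKM in at least 3 libraries and were tested, and the other 10 did not. Of these 52, 5 were higher in KO and 2 were lower, by limma on log2(FPKM + 1) with a Benjamini-Hochberg adjusted p under 0.05 over all genes tested. Over all 9536 genes tested in that pool, 5.64% were called higher and 4.73% lower, and the median change was 0.10 on the log2 scale, compared with 0.11 over the factors. In the RNP pool, 6 of 52 factors were higher and 1 was lower, where 10.5% of 9931 genes were called higher and 10.2% lower and the medians were 0.07 over the factors and 0.05 over all genes. In either direction, 13.5% of the factors were called in each pool, beside 10.4% of all genes in the polysome pool and 20.7% in the RNP pool. Under quantile normalization the RNP calls were 6 higher and 2 lower. Of the 7 factors called in each pool, 4 (57.1%) were called in both with the same sign. The matching share over all genes was not counted, so this one has no background. In pooled oocytes, fewer cells of a type and less RNA per cell cannot be told apart.

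**Figure D2:**
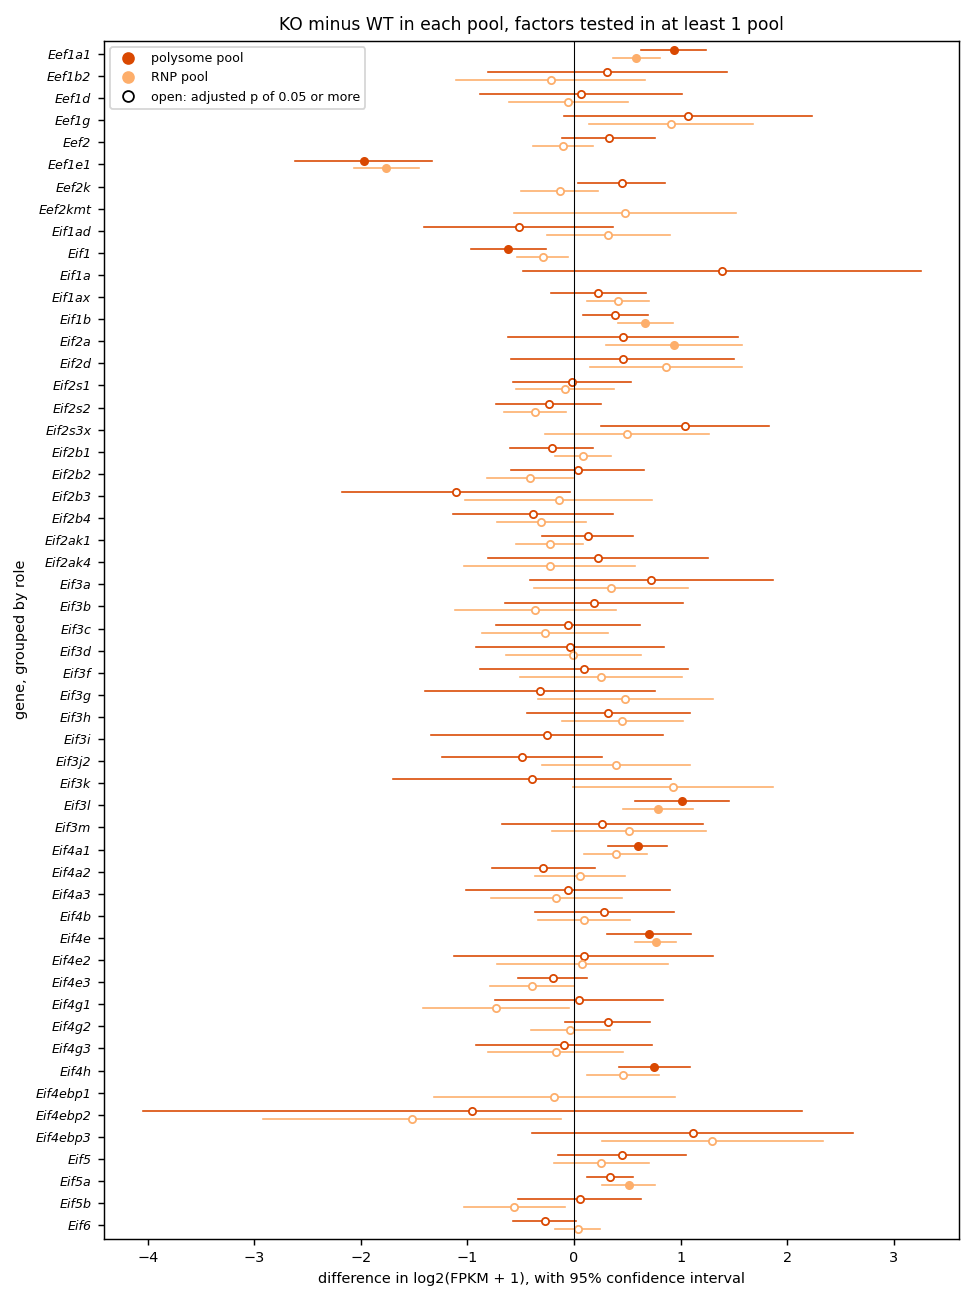
Difference between KO and WT in log2(FPKM + 1) with 95% confidence interval for every factor tested in at least 1 pool, with the polysome pool in dark and the RNP pool in light orange, and filled points where the adjusted p was under 0.05. Eef1a1, Eif3l and Eif4e are filled on the right in both pools and Eef1e1 on the left in both.

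Eef1a1 lies at chr9:78478452-78481724 in the deposited table (mm10). It measured 130.1, 155 and 123 FPKM in the WT polysome libraries and 264, 255 and 259 FPKM in the KO ones, and 164, 168 and 167 FPKM in WT RNP against 226, 262 and 265 FPKM in KO RNP. Every KO library was above every WT library of the same pool. The mean ratio of KO to WT was 1.91 in the polysome pool (log2 change 0.93, SE 0.13, adjusted p 0.00528) and 1.51 in the RNP pool (log2 change 0.59, SE 0.10, adjusted p 0.00333), both by limma. Processed copies of Eef1a1 are scattered through the genome, and how reads shared with them were assigned is not given in the sources used here. Eef2 was not called, with log2 changes of 0.33 (95% CI -0.11 to 0.76) in the polysome pool and -0.10 (-0.38 to 0.18) in the RNP pool. The other tested elongation factors were Eef1b2, Eef1d and Eef1g, and none was called in either pool, the largest change being that of Eef1g at 1.07 in the polysome pool with an adjusted p of 0.225 by limma.

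Eef1e1 moved the other way. Despite its name, its product is an accessory protein of the multi-tRNA synthetase complex, related to eEF1 subunits in sequence. It lies at chr13:38645689-38659028 and measured 176, 139 and 144 FPKM in WT RNP and 46.8, 40.7 and 45.4 FPKM in KO RNP. In the polysome pool it measured 93.8, 59.5 and 66.9 FPKM in WT and 19.1, 22.8 and 12.4 FPKM in KO. The 2 genotypes were far apart in both pools, at a KO to WT ratio of 0.289 in RNP (log2 change -1.76, SE 0.14, adjusted p 6.47e-05) and 0.247 in polysome (log2 change -1.97, SE 0.28, adjusted p 0.00544) by limma. It was the only factor called in both pools under all 14 alternatives in each, and the largest change of any called factor in either genotype comparison.

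In the cap-binding complex, Eif4e rose in both pools. It lies at chr3:138526189-138557599 and measured 252, 269 and 234 FPKM in WT RNP against 431, 444 and 411 FPKM in KO RNP, and 262, 180.1 and 189 FPKM in WT polysome against 292, 354 and 374 FPKM in KO polysome. The genotypes did not overlap in either pool, although in the polysome pool the highest WT library and the lowest KO library were close. The log2 change was 0.77 (SE 0.09, adjusted p 0.000476) in RNP and 0.70 (SE 0.17, adjusted p 0.0366) in polysome by limma. Eif4e was called under all 14 alternatives in RNP and in only 7 of 14 in polysome. Its paralogs were not called in either pool, with polysome changes of 0.09 for Eif4e2 and -0.20 for Eif4e3.

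The helicase Eif4a1 and its RNA-binding cofactor Eif4h were called higher in the polysome pool. Eif4a1 measured 149, 149.5 and 139 FPKM in WT polysome and 226, 231 and 208 FPKM in KO polysome, and Eif4h measured 189, 191 and 150.2 and 262, 319 and 313 FPKM. Neither pair of groups overlapped, and the log2 changes were 0.60 (SE 0.12, adjusted p 0.0184) and 0.75 (SE 0.15, adjusted p 0.0152) by limma. In the RNP pool the changes were 0.39 with an adjusted p of 0.0641 and 0.46 with an adjusted p of 0.0585, past the threshold in neither, and the difference between pools was not called for either gene (below). Eif4a2 and Eif4a3 had polysome changes of -0.29 (95% CI -0.77 to 0.20) and -0.06 (-1.02 to 0.90). In all, 3 of the 11 eIF4F factors were called higher in polysome and 1 of 11 in RNP, and none lower, beside 5.64% of all genes called higher in polysome and 10.5% in RNP.

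Among the 14 eIF3 subunits, of which 12 were tested in polysome and 11 in RNP, Eif3l alone was called. It lies at chr15:79075221-79094400 and measured 26.6, 28.9 and 25.05 FPKM in WT polysome, 58.0, 58.6 and 49.2 in KO polysome, 33.5, 33.5 and 40.5 in WT RNP and 65.1, 62.6 and 60.0 in KO RNP. All 6 KO libraries were above all 6 WT libraries. The log2 change was 1.01 (SE 0.19, adjusted p 0.0149) in polysome and 0.79 (SE 0.15, adjusted p 0.00552) in RNP. The medians over the tested subunits were 0.03 in polysome and 0.39 in RNP, with 6 of 12 and 8 of 11 above 0.

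The start-site factors Eif1 and Eif1b differed in opposite directions, and each was called in 1 pool. Eif1 measured 279, 322 and 401 FPKM in WT polysome and 199, 235 and 212 FPKM in KO polysome, a log2 change of -0.62 (SE 0.15, adjusted p 0.0389), and its RNP change of -0.29 had an adjusted p of 0.0814. Eif1b measured 352, 279.8 and 259 FPKM in WT RNP and 463, 484 and 459 FPKM in KO RNP, a log2 change of 0.67 (SE 0.11, adjusted p 0.00386), and its polysome change of 0.39 had an adjusted p of 0.107 by limma. In both pools the KO libraries lay below the WT libraries for Eif1 and above them for Eif1b. Eif1a and Eif1ax were not called in the pools where they were tested.

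Eif5a and Eif2a were called in the RNP pool and not in the polysome pool, and neither was called for a difference between the pools. Eif5a measured 481, 352 and 414 FPKM in WT and 576, 571 and 619 FPKM in KO, without overlap, a log2 change of 0.51 (SE 0.11, adjusted p 0.0115), and in polysome its change was 0.34 with an adjusted p of 0.0592. Eif2a, a protein outside eIF2 that can also bring the initiator tRNA, measured 4.04, 5.42 and 7.01 FPKM in WT and 10.7, 12.3 and 10.7 FPKM in KO, a log2 change of 0.94 with an adjusted p of 0.0443 by limma. In the polysome pool the Eif2a libraries overlapped, at 8.66, 3.63 and 8.51 FPKM in WT and 6.14, 15.1 and 8.60 FPKM in KO. Of the eIF2 subunits Eif2s1, Eif2s2 and Eif2s3x, the 4 eIF2B subunits tested, the kinases Eif2ak1, Eif2ak4 and Eef2k, and the eIF4E-binding repressors, of which 2 were tested in polysome and 3 in RNP, none was called in either pool. Eif2b5, Eif2ak2 and Eif2ak3 were under the filter in both pools and Eif4ebp1 in polysome, so they were not tested there.

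**Figure D3:**
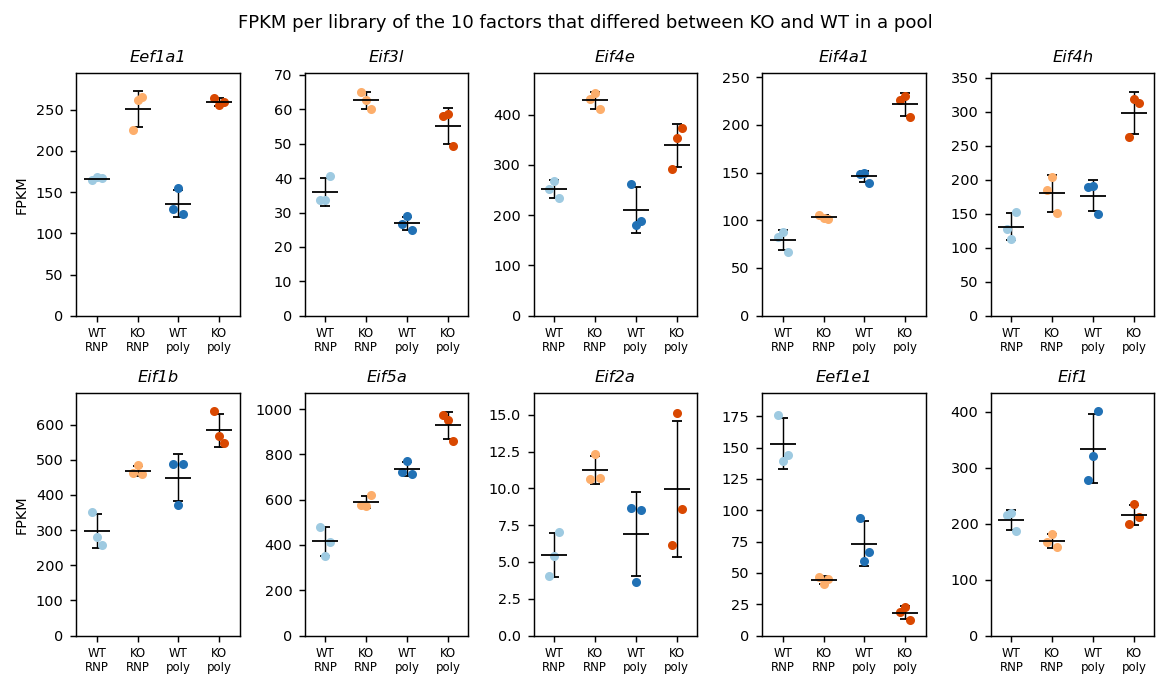
FPKM in each library of the 10 factors called between KO and WT in at least 1 pool, with points for libraries and bars for the mean and SD of 3. Eef1a1, Eif3l and Eif4e sit higher in KO than in WT in both pools, Eef1e1 sits lower in both, and the scale starts at 0 in each panel.

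The polysome calls depended on single libraries and on how the variance was modelled. The number of factors called in the polysome pool fell from 7 to 4 without the first KO polysome library, to 2 without the second, the one with high Mir300, and to 3 without the third. Calls over all genes fell as well, from 10.4% to 5.77%, 4.38% and 4.22% in the same order. The number of factors fell to 1, Eef1e1, when the variance was not allowed to follow the expression level, where 5.33% of all genes were still called. Of the other polysome calls, Eif1 held in 6 of 14 alternatives, Eif4e in 7, Eif4a1 in 9, Eif3l and Eif4h in 11 each and Eef1a1 in 13. In the RNP pool the count of factors called stayed between 6 and 10 under every alternative, but Eif2a was called in only 7 of 14 alternatives. No called factor changed sign in any of them.

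Among 2 further lists of translation genes, calls were mixed in direction. Of 16 tested genes of translation control outside the factors, 1 was higher and 4 were lower in KO polysome, beside 5.64% and 4.73% of all genes, and of 17 tested in RNP, 4 were higher and 4 lower, beside 10.5% and 10.2%. Mknk1, a kinase that phosphorylates eIF4E, was lower by limma in polysome (log2 change -1.76, adjusted p 0.0116) and in RNP (-1.80, adjusted p 9.73e-05), and so was Paip1, a partner of the poly(A)-binding protein and eIF4A (-0.95, adjusted p 0.00822, and -0.78, adjusted p 0.000824). Mknk2 and Paip2, of the same list, went the other way. Both were called higher in RNP by limma (2.06, adjusted p 0.00629, and 0.63, adjusted p 0.000634). Neither was called in polysome (1.35, adjusted p 0.0715, and 0.43, adjusted p 0.0875). Of 7 tested genes of termination and ribosome recycling, none was called in polysome, beside 5.64% of all genes called higher and 4.73% lower. In RNP, Abce1 was higher and Hbs1l lower, beside 10.5% and 10.2% of all genes.

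The polysome-to-RNP difference itself was compared between genotypes by an interaction term fitted to the 12 libraries together. None of the 56 factors tested was called by limma, where 0.0822% of 10949 genes were called with a higher ratio in KO and 0.155% with a lower one. An unadjusted p under 0.05 was seen for 3 of the 56 factors, beside 1220 of the 10949 genes. The smallest unadjusted values were those of Eif2ak3 (log2 difference 1.63, 95% CI 0.27 to 2.99, adjusted p 0.347), Eef2k (0.58, 0.09 to 1.08, adjusted p 0.356) and Eef1a1 (0.35, 0.01 to 0.69, adjusted p 0.432), the Eif2ak3 libraries lying at or under 2.47 FPKM. The Eef1a1 interval lay just above 0. For the other factors called between genotypes, the interval was -0.50 to 0.36 for Eif4e, -0.26 to 0.70 for Eif3l, -0.90 to 0.47 for Eef1e1, -0.16 to 0.57 for Eif4a1, -0.17 to 0.77 for Eif4h, -0.74 to 0.09 for Eif1, -0.68 to 0.12 for Eif1b, -0.50 to 0.14 for Eif5a and -1.66 to 0.70 for Eif2a. These 9 intervals hold 0. The median over the factors was 0.07, beside 0.04 over all genes.

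In WT oocytes, the gamma subunit of eIF2, the 2 eIF4A helicases and the scaffold Eif4g2 stood higher in the polysome than in the RNP pool. By limma, 8 of 50 factors tested were higher in polysome and 1 was lower, beside 7.97% higher and 6.72% lower of 9574 genes, with a median of 0.09 over the factors and -0.09 over all genes. In KO, 17 of 52 factors were higher and 4 lower, beside 15.5% and 13.8% of 9851 genes, with medians of 0.08 and -0.04. In either direction this was 9 of 50 factors beside 14.7% of the genes in WT, and 40.4% beside 29.2% in KO. Libraries of a group were closer to each other in KO, with correlations of 0.933 to 0.936 in polysome and 0.960 to 0.962 in RNP. In WT they were 0.883 to 0.885 in polysome and 0.907 to 0.932 in RNP. More calls in KO therefore need not mean larger differences between the pools there. Under quantile normalization the WT calls were 6 higher and 2 lower. All 9 factors called in WT were called in KO with the same sign, which was 42.9% of the 21 called in KO. The matching shares over all genes were not counted. The comparison is of relative levels within each library, so it gives no share of an mRNA's molecules on polysomes.

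Eif2s3x, at chrX:94188707-94212651, had the largest difference of the factors called between pools. It measured 2.57, 1.65 and 1.62 FPKM in WT RNP and 13.6, 10.13 and 8.61 FPKM in WT polysome, and 2.91, 2.88 and 3.59 FPKM in KO RNP and 15.0, 28.5 and 27.9 FPKM in KO polysome. The pools did not overlap in either genotype, and the log2 difference was 1.99 (SE 0.42, adjusted p 0.0151) in WT and 2.54 (SE 0.30, adjusted p 0.000304) in KO. The other subunits of the same complex did not share it, with Eif2s1 at 0.08 and 0.15 and Eif2s2 at 0.31 and 0.44, of which only the Eif2s2 difference in KO was called (adjusted p 0.0447 by limma).

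Of the helicase genes, Eif4a2 measured 24.0, 24.7 and 30.2 FPKM in WT RNP and 110.2, 73.4 and 78.8 in WT polysome, and 23.3, 29.9 and 28.9 and 63.5, 86.5 and 63.4 FPKM in the same pools of KO. Eif4a1 measured 82.4, 87.3 and 67.0 FPKM in WT RNP and 106, 102 and 102 in KO RNP, each below the polysome values given above. The log2 differences were 1.68 (adjusted p 0.00187) and 0.89 (adjusted p 0.00713) in WT, and 1.34 (adjusted p 0.0006) and 1.09 (adjusted p 6.79e-05) in KO. Eif4a3 showed differences of -0.17 and -0.06, with intervals of -1.09 to 0.75 and -0.71 to 0.59.

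Of the scaffold genes, Eif4g2 measured 28.2, 25.7 and 29.5 FPKM in WT RNP, 48.6, 58.2 and 46.7 in WT polysome, 26.0, 28.5 and 26.9 in KO RNP and 61.1, 64.6 and 65.2 in KO polysome. Every polysome library was above every RNP library, with log2 differences of 0.85 (adjusted p 0.0256) in WT and 1.20 (adjusted p 0.000249) in KO. Eif4g1 was called in KO and not in WT (0.85, adjusted p 0.0434), where its RNP libraries were at 3.86, 4.36 and 3.84 FPKM and its polysome libraries at 9.31, 6.93 and 8.11 FPKM, while in WT they overlapped, at 8.49, 5.43 and 8.51 and 7.27, 7.79 and 8.37 FPKM. The difference between the genotypes, 0.78, was not called (adjusted p 0.521 by limma). Eif4g3 lay at -0.08 in WT and -0.01 in KO.

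Eif5a, Eif1 and Eif1b were also higher in polysome in both genotypes, by 0.83, 0.67 and 0.60 on the log2 scale in WT and by 0.65, 0.35 and 0.32 in KO. Eif3j2 was called higher in polysome in both, by 1.85 and 0.97, with the doubt over its coordinates given above. Under quantile normalization the Eif1 and Eif1b calls were lost in both genotypes, and the Eif1b difference in KO shrank to 0.09. Further factors called higher in polysome in KO and not in WT were Eif1a (1.74, from libraries listed at 0, 1.42 and 1.58 FPKM in RNP and 5.89, 10.3 and 1.97 FPKM in polysome, and called in 5 of 13 alternatives), Eef2k (0.75), Eif4h (0.73) and Eif4e3 (0.61), the last 3 called in all 14 alternatives. Named after their values were seen, Eif3a (0.83, adjusted p 0.0401 by limma), Eif4b (0.74, adjusted p 0.0202) and Eif5b (0.63, adjusted p 0.0492) were also called, in 7, 9 and 3 of 14 alternatives. None of these differences between pools was called as different between the genotypes.

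The factors lower in polysome were fewer. Eef1e1 was lower by limma in both genotypes, at -1.07 (adjusted p 0.0095) in WT and -1.28 (adjusted p 0.00276) in KO, from the library values given above. Eif6, which keeps the large subunit from joining too early, measured 229, 213 and 221 FPKM in WT RNP, 173, 165 and 175 in WT polysome, 207, 239.9 and 233 in KO RNP and 154, 139.8 and 131 in KO polysome. Its difference was called in KO (-0.68, adjusted p 0.00168) and not in WT (-0.36, adjusted p 0.0684), although the pools overlapped in neither. Eif2b4, the delta subunit of eIF2B, measured 22.1, 23.7 and 20.05 and 10.8, 13.1 and 9.81 FPKM in the WT RNP and polysome pools and 17.6, 17.7 and 17.3 and 7.24, 8.96 and 8.85 FPKM in those of KO, at -0.91 (adjusted p 0.0627) and -0.99 (adjusted p 0.00771). Eif4e was lower in KO polysome than in KO RNP, at -0.34 (adjusted p 0.0389) and stood at -0.28 (95% CI -0.64 to 0.09) in WT. Eif2b1, the most abundant eIF2B mRNA, differed between pools by 0.09 in WT and -0.20 in KO and was not called.

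**Figure D4:**
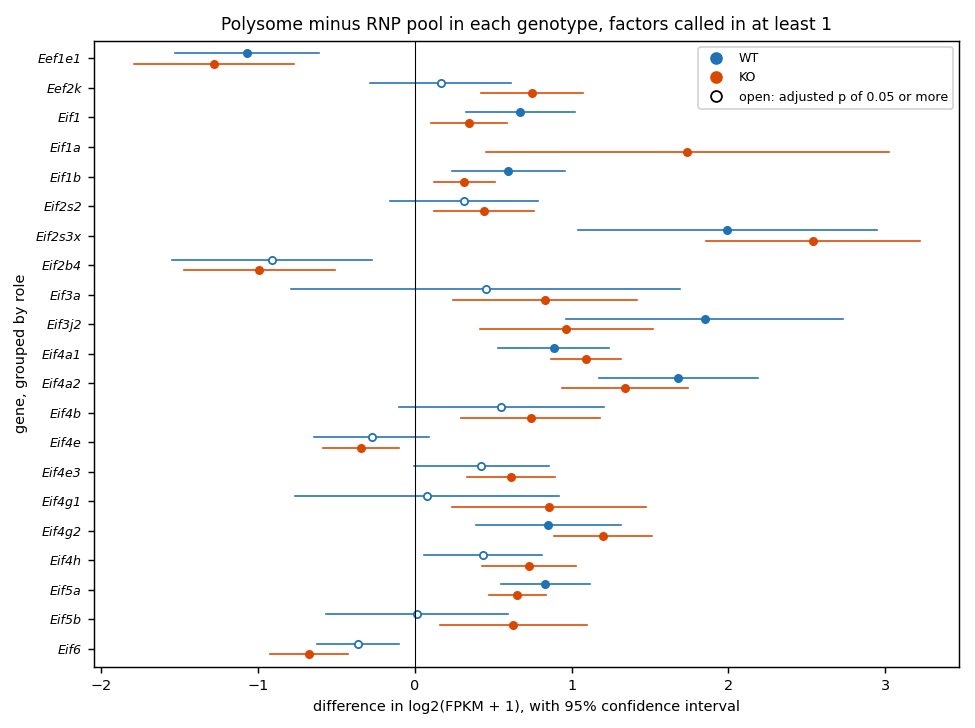
Difference between the polysome and RNP pools in log2(FPKM + 1) with 95% confidence interval for the 21 factors called in at least 1 genotype, WT in blue and KO in orange, filled where the adjusted p was under 0.05. Eif2s3x and Eif4a2 lie far to the right in both genotypes and Eef1e1 to the left.

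**Figure D5:**
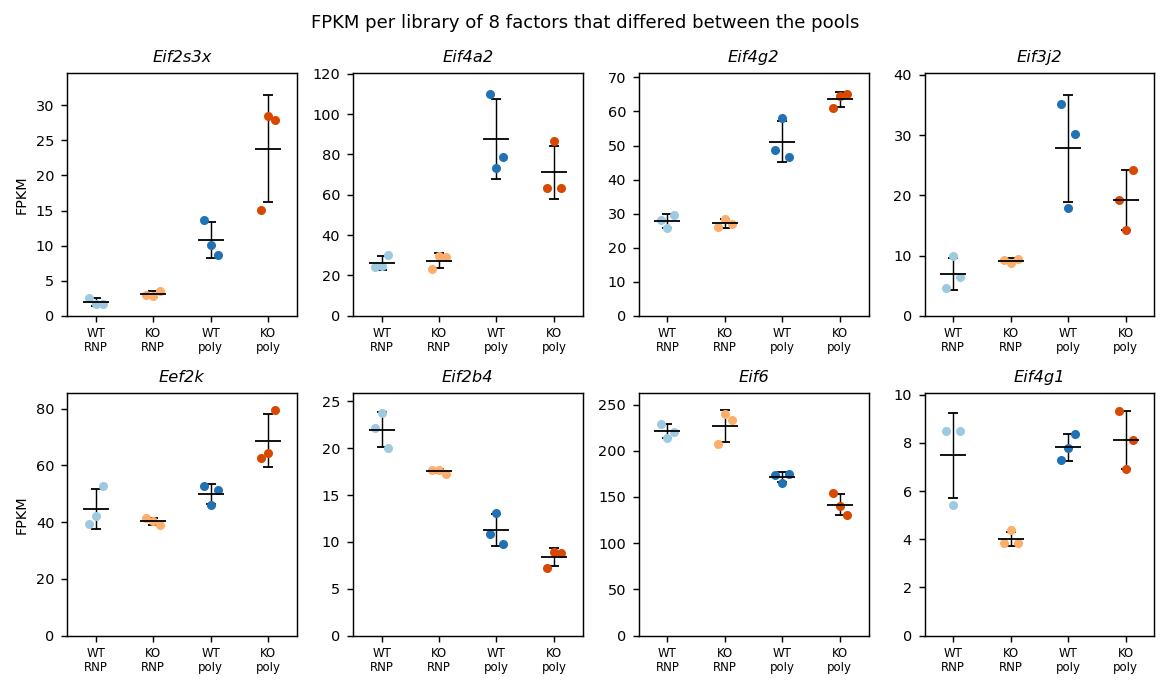
FPKM in each library of 8 factors that differed between the pools in at least 1 genotype, with points for libraries and bars for the mean and SD of 3. Eif2s3x, Eif4a2 and Eif4g2 are higher in the polysome pool of both genotypes, and Eif6 and Eif2b4 are lower.

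These calls also rested on few libraries. In WT, the 9 factors called became 5 without the second WT RNP library and 5 without the third, and 3 when the variance was not allowed to follow the expression level. Calls over all genes fell as well in these WT fits, from 14.7% to 8.58%, 8.53% and 7.60%. In KO, the 21 became 13, 11 and 12 without the first, the second and the third KO RNP library. Over all genes the KO share fell from 29.2% to 21.4% in each of these fits. Eif4a2 was called under all 14 alternatives in WT, and 11 of the 21 factors, among them Eif2s3x, Eif4a1, Eif4a2, Eif4g2, Eif5a, Eef1e1, Eif6 and Eif2b4, were called under all 14 in KO. By role, 3 of 11 eIF4F factors were higher and none lower in polysome in WT, beside 7.97% and 6.72% of all genes, and 7 were higher and 1 lower in KO, beside 15.5% and 13.8%. Of 5 elongation factors tested none was called in either genotype by limma, and a difference between roles was not tested. An unadjusted p under 0.05 was seen for 1 of the 5 in WT, beside 2781 of 9574 genes. In KO it was seen for 0, beside 3960 of 9851 genes. Of the 17 tested genes of translation control outside the factors, 5 were higher and 4 lower in KO polysome than in KO RNP. Of 16 tested in WT, 3 were higher and 1 lower. The shares of all genes called are those given beside the eIF4F factors.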

How the data were processed

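RNA-seq was performed on RNP (fractions 1 to 10) and polysome (fractions 11 to 28) pools of GV-stage oocytes from Lsm14b-KO and WT mice, in 12 libraries. RNA was amplified by a Smart-seq2 procedure before library construction. Per the submitters' processing notes, trimmed reads were aligned to mm10 with TopHat2 2.0.13, and the authors calculated FPKM with Cufflinks 2.2.1. The annotation release and the handling of reads that match several genes are not given in the sources used here, so genes with near-identical copies (Eef1a1, Eif4a1, Eif1, Eif5a, Eif3j1, Eif3j2, Eif2s3x and Eif2s3y) are uncertain. The deposited FPKM values, 1 column per library, were the only measurements used. A further 54 columns hold the authors' own comparisons (fold changes, p-values and q-values) and were not used.

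Groups were taken from the sample labels. log2(FPKM + 1) was tested with limma 3.58.1 (R 4.3.3) with an intensity trend, with p-values adjusted by Benjamini-Hochberg over all genes tested and a threshold of 0.05. Genes needed at least 1 FPKM in at least 3 libraries of a comparison. The added 1 understates the change of low genes. Each comparison of 2 groups used the libraries of these groups only, and the interaction of genotype and pool used all 12. Alternatives were pseudocounts of 0.1 and 5, no filter, a filter at 5 FPKM, rescaling to the same median, quantile normalization, no intensity trend, a replicate block and leaving out each library. For the ratio, a replicate block within genotype was also fitted. The fit was tested on simulated data with 200 changed genes. The depth estimate took 200 bases off each transcript for its effective length and is rough. Tables and figures were made with Python 3.11.15, numpy 2.4.6, pandas 2.3.3 and matplotlib 3.10.9.

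The factors and lists were chosen with earlier results of these data known. In the text, Lsm14b was named, then per comparison every factor called, or with more than 12 the 6 largest in each direction, the 2 most abundant factors of each role, the paralog sets and the kinases. Markers of oocytes, granulosa and cumulus cells, theca and stroma, endothelium, and blood and immune cells were examined.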

Additional observations from a re-analysis of the deposited data

How the results depend on the processing

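The 7 factors called between KO and WT in the polysome pool became 1 without the intensity trend, and 2 to 7 when single libraries were left out. The 9 called between pools in WT became 3 without the intensity trend and 5 to 10 without single libraries, and the 21 in KO became 11 to 18 without single libraries. Apart from the replicate block in the polysome pool, the other alternatives kept these counts, the 7 called in the RNP pool and the 0 called for the ratio within 1.5 times, and Lsm14b was lower in KO under each of them. No called factor changed sign. Over all genes, the share called between KO and WT in polysome went from 10.4% to 5.33% without the intensity trend. Without single libraries it was 4.22% to 8.60%. Between pools in WT it went from 14.7% to 7.60% without the trend, and was 8.53% to 13.1% without single libraries. In KO it went from 29.2% to between 21.4% and 30.5% without single libraries. Deviations of same-numbered libraries from their group means correlated at -0.02 to 0.03. This cannot tell whether same-numbered pools came from 1 lysate, which the sources used here do not say. With a replicate block the counts were 4 for polysome libraries, 6 for RNP libraries, 0 for the ratio, 8 between pools in WT and 17 in KO. With a block for same-numbered pools of 1 genotype, 0 factors and 0 of 10949 genes were called for the ratio. With 3 libraries a group and the depth given above, factors under about 1 FPKM could not be compared, and a factor that was not called may still differ.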
